A study of Mus musculus with 663 samples.

Results

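The cells described here are 49 of the 106 single cells measured at E13.5 (E stands for embryonic day), out of 662 cells in the whole series. They were chosen by their own expression. For each cell, S was the mean of log2(RPKM + 1) over 5 supporting-lineage genes (Foxl2, Fst, Kitl, Runx1 and Irx3), and T was the same mean over 5 interstitial genes (Nr2f2, Pdgfra, Dcn, Col1a1 and Tcf21). RPKM is a read count scaled to the length of the gene and to the mapped reads of the library. A cell was a member where S exceeded T by at least 1. The first E13.5 capture held 26 members and 27 other cells, and the second held 23 members and 30 other cells. Members made up 46.2% ± 4.0 of the cells (SD, n = 2 captures).

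The members and the cells they were set against came from the same captures and were told apart by this gate alone. Per the labels, all were live eGFP-positive cells of XX gonads from mice of mixed background carrying the Nr5a1-eGFP reporter. Nr5a1 encodes a nuclear receptor of the gonadal somatic lineage, and its reporter is shared by every group. Cells not scored as eGFP-positive were therefore not sampled. The eGFP transcript reached 1 RPKM in 26 of 26 and 23 of 23 members by capture. Among the other cells it did so in 26 of 27 and 28 of 30. The same gate was applied to the E12.5, E16.5 and P6 (postnatal day 6) captures for comparison. Each sample was 1 cell caught in a chamber of a C1 microfluidic chip. The replicate is therefore the capture, that is 1 chip run, and not the cell. Whether the captures of a stage stem from different litters is not labelled. The p-values below cover the variation from capture to capture, which may be technical.

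Pregranulosa cells are the supporting cells of the fetal ovary. They surround the germ cells and later become the granulosa cells of the follicles. Foxl2, a forkhead transcription factor, and the WNT4 and R-spondin 1 signal are known to keep them on the ovarian path, and their precursors stop dividing during fetal life, when the cell cycle inhibitor Cdkn1b marks them.

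Depth was much alike in members and other cells. The estimated median depth was 2.90 and 2.84 M reads (M stands for 10 to the power 6) per member cell in the first and second capture, against 3.21 and 2.93 M reads per other cell. Members had a median of 7255 and 7019 detected genes, against 7249 and 7013 in the other cells. None of the 106 cells had 1 RPKM of any of 4 Y-linked genes. In the second E12.5 capture, 1 of 3 cells passing the gate and 39 of 50 others had such a transcript, against their XX label, and that capture was not used. No doublet caller was run. Of the 49 members, 3 held at least 1 RPKM of 3 of the 5 interstitial genes and none held more. Of the 57 other cells, 5 held 4 or 5 of the 5 supporting genes, and they stayed among the other cells because their interstitial genes were high too. The other cells with the highest S, at 4.78 and 5.04 by capture, had T of 6.35 and 6.15. They also had the most detected genes among the other cells of their capture, at 10467 and 12887. The highest count in a member was 8480 and 11502 by capture. Whether such chambers held more than 1 cell was not tested.

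The gate genes themselves describe the choice and were given no test. Kitl, the ligand of the KIT receptor on germ cells, averaged 240 and 233 RPKM in members, against 45.4 and 39.4 RPKM in the other cells, and every member had it. Fst, the gene of follistatin, which binds activin, averaged 100.9 and 128.9 RPKM in members, against 10.2 and 6.07 RPKM in the other cells. Foxl2 averaged 31.2 and 10.47 RPKM in members, against 1.81 and 1.39 RPKM in the other cells, but it was present (at least 1 RPKM) in only 15 of 26 and 11 of 23 members. Kitl was thus the most widely detected supporting gene and Foxl2 the least. Irx3 was present in 21 of 26 and 20 of 23 members, Runx1 in 20 of 26 and 16 of 23, and Fst in 25 of 26 and 18 of 23. All 5 supporting genes were present together in 13 of the 49 members, 4 in 23 and 3 in 12. On the interstitial side, Nr2f2, which encodes the nuclear receptor COUP-TFII, was present in 24 of 26 and 18 of 23 members at lower means (26.7 and 19.1 RPKM, against 162.4 and 132.99 RPKM in the other cells), while the transcription factor gene Tcf21 was present in 1 member of each capture.

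**Figure D1:**
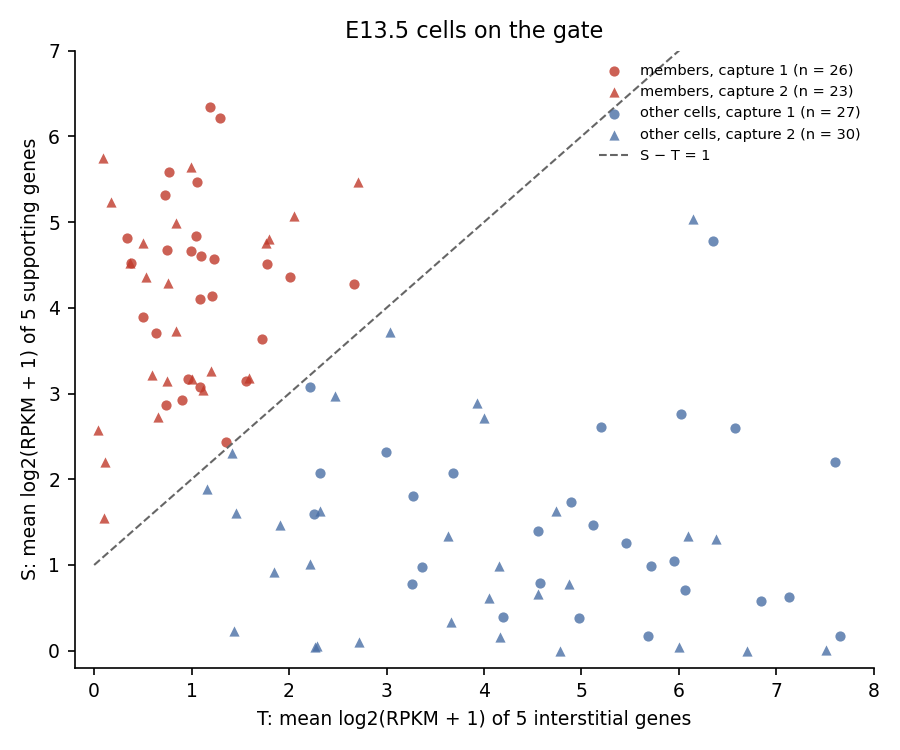
Each point is 1 E13.5 cell, with T on the horizontal axis and S on the vertical axis (both mean log2(RPKM + 1) over 5 genes); the dashed line is the gate at S − T = 1. The 49 members lie above the line with S − T from 1.08 to 5.65, and few cells lie close to it.

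S − T ran from 1.08 to 5.65 in members (median 3.01) and from -7.50 to 0.889 in the other cells (median -3.15). The members closest to the gate had S − T of 1.08, 1.45 and 1.59, and the closest cells outside had 0.889, 0.861 and 0.735. Of the 57 other cells, 45 had T above S by at least 1 (23 and 22 by capture) and 12 lay between the classes. The same gate passed 0 of 71 cells at E10.5 and 5 of 106 at E11.5. It passed 16 of 53 and 24 of 57 cells in the E12.5 captures used here, 25 of 55 and 18 of 40 at E16.5, and 20 of 55 and 18 of 66 at P6.

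Gng13, a G protein gamma subunit gene and the only proposed marker outside the gate, was not called. It averaged 118.5 and 130 RPKM in members, against 59.4 and 41.9 RPKM in the other cells. It was present in 14 of 26 and 12 of 23 members, and in 11 of 27 and 16 of 30 other cells (limma adjusted p = 0.306 with equal weight per cell, as defined with the comparison). Its exons overlap those of Chtf18 in the annotation, and reads of overlapping genes may not have been told apart. Genes of the testis supporting lineage were mostly at 0: Amh, Dhh and Sox8 were at 0 RPKM in every member. Sox9, the transcription factor gene that drives testis supporting cells, did not pass the test (limma adjusted p = 0.065 with equal weight and 0.701 for its class means), and is named here after its values were seen. It averaged 7.34 and 17.98 RPKM in members, against 0.949 and 6.32 RPKM in the other cells. Detection was in 7 of 26 and 16 of 23 members, against 3 of 27 and 6 of 30 other cells. The whole list of 9 testis supporting genes summed to 10.7 and 24 RPKM in members, against 7.46 and 12.2 RPKM in the other cells.

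Markers of cell types outside the Nr5a1 lineage were low. The summed mean of 8 germ cell genes was 1.804 and 28.1 RPKM in members, against 8.62 and 4.27 RPKM in the other cells. Pou5f1, Ddx4, Dppa5a, Stra8 and Mael were at 0 in every member. Dazl, Dppa3 and Sycp3 each reached 1 RPKM in at least 1 member, and Dppa3 was at 0 in all of the other cells. The 7 endothelial genes summed to 1.57 and 7.69 RPKM in members, against 31.2 and 10.04 RPKM in the other cells, with Cdh5, Tek, Tie1, Cldn5 and Esam at 0 in members. The 5 leukocyte genes in the table summed to 1.74 and 3.797 RPKM in members, against 6.10 and 3.13 RPKM in the other cells, with Ptprc at 0. Globin genes were at 0 in all 106 cells, and 6 nephric genes summed to 3.81 and 2.59 RPKM in members, against 10.48 and 8.31 RPKM in the other cells. The summed means of the surface epithelium genes and of the interstitial genes were higher in the other cells. They are given with their lists, where single genes went either way or overlapped.

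The comparison of members with the other cells of their capture asks which genes outside the gate vary with it in the same way in both captures. Because the cells were split on 10 genes, a difference in another gene is a description of what goes with those genes. For each capture the difference was log2(mean RPKM + 1) of members minus that of the other cells. limma fitted these differences over the 8 captures with enough cells of both classes. At an adjusted p under 0.05 (Benjamini-Hochberg, two-sided) it called 0 of 19702 genes at E13.5 (0%), with 1409 genes at an unadjusted p under 0.05 and a lowest adjusted p of 0.0652. Among all genes tested, 21.3% were higher and 27.1% were lower in members in both captures, and counts of genes on 1 side in both captures are to be read against those shares.

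A mean over cells is weighted towards the cells with the most RNA of a gene. When each cell was given equal weight, by averaging log2(RPKM + 1) over cells, limma called 289 of 19702 genes (1.47%), of which 177 were lower in members (0.898% of genes tested) and the rest higher (0.568%), with 2712 at an unadjusted p under 0.05. This scale was taken up to name genes only after the first comparison had called none. It held without both P6 captures (356 genes, 255 of them among the 289). It did not hold when 1 capture was left out: each of the 8 such fits called 0 genes. In those fits the prior degrees of freedom, the weight limma gives to the spread shared by all genes, were between 2.72 and 4.18, against 10.2 with all 8 captures. Calls below are from this equal-weight comparison and carry this limit. Set against only the 45 cells with T above S by at least 1, which are part of the same other cells, the same members gave a call for 242 of the 289.

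Among the genes named by rule, Thbs2, which encodes the secreted matrix glycoprotein thrombospondin 2, was close to absent from the other cells. It lies on chromosome 17 (14665500 to 14694235, minus strand, GRCm38). It averaged 84.4 and 58.4 RPKM in members, against 3.62 and 0.785 RPKM in the other cells. It was found in 20 of 26 and 16 of 23 members and in 2 cells of each other group (of 27 and of 30). The equal-weight difference was 3.68 ± 0.37 (SE, limma adjusted p = 0.000975), against 4.63 ± 0.95 for the class means (limma adjusted p = 0.238).

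Bhlhe41, a transcriptional repressor gene of the circadian clock, averaged 155.6 and 168 RPKM in members, against 20.1 and 21.7 RPKM in the other cells. At least 1 RPKM was present in 24 of 26 and 21 of 23 members and in 12 cells of each other group. Akr1cl, an aldo-keto reductase gene with close relatives in its family, averaged 293 and 140.8 RPKM in members, against 32.3 and 21.99 RPKM in the other cells. Pank1, which encodes a kinase of coenzyme A synthesis, averaged 95.1 and 74.8 RPKM in members, against 17.5 and 9.11 RPKM in the other cells. In all 3 genes both means of members lay above both means of the other cells. That goes with the rule, which names the largest differences with 1 direction in both captures. Klhl23, a kelch-family gene, was alike, at 159.4 and 223 RPKM in members, against 25.3 and 25.7 RPKM in the other cells.

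Other genes of the highest 10 were expressed by many cells of both classes and were higher in members. Cgn, which encodes cingulin of epithelial tight junctions, was present in all 49 members and in 16 of 27 and 19 of 30 other cells. It averaged 284 and 387 RPKM in members, against 77.5 and 82.99 RPKM in the other cells. Kctd14 was also present in all 49 members, at 559 and 492 RPKM, against 236 and 90.4 RPKM in the other cells. Gstm2, a glutathione S-transferase gene, averaged 983 and 450 RPKM in members, against 146.3 and 180 RPKM in the other cells. Its neighbour Gstm1, named after its values were seen, averaged 983 and 565 RPKM in members, against 133.1 and 148.1 RPKM in the other cells. The means of these paralogs were near equal in the first capture, while within single members the values were close in some and differed in others. Among these members, 1 had 1156 RPKM of Gstm2 and 1194 RPKM of Gstm1. Another had 3469 RPKM of Gstm2 and 1045 RPKM of Gstm1, and 1 more had 859.5 RPKM of Gstm2 and 2065 RPKM of Gstm1. Whether the 2 genes share reads was not tested. How reads that match both genes were counted is not given in the sources used here. Lzts1, the last of the 10, was at 201 and 191 RPKM in members, against 73.7 and 47.7 RPKM in the other cells. The limma adjusted p with equal weight was between 0.00487 and 0.0282 for Akr1cl, Bhlhe41, Cgn, Gstm2, Klhl23, Pank1, Kctd14 and Lzts1, and between 0.145 and 0.73 for their class means. In the annotation Akr1cl overlaps Gm8550 and Bhlhe41 overlaps Gm43909, so some of their reads may belong to those genes.

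**Figure D2:**
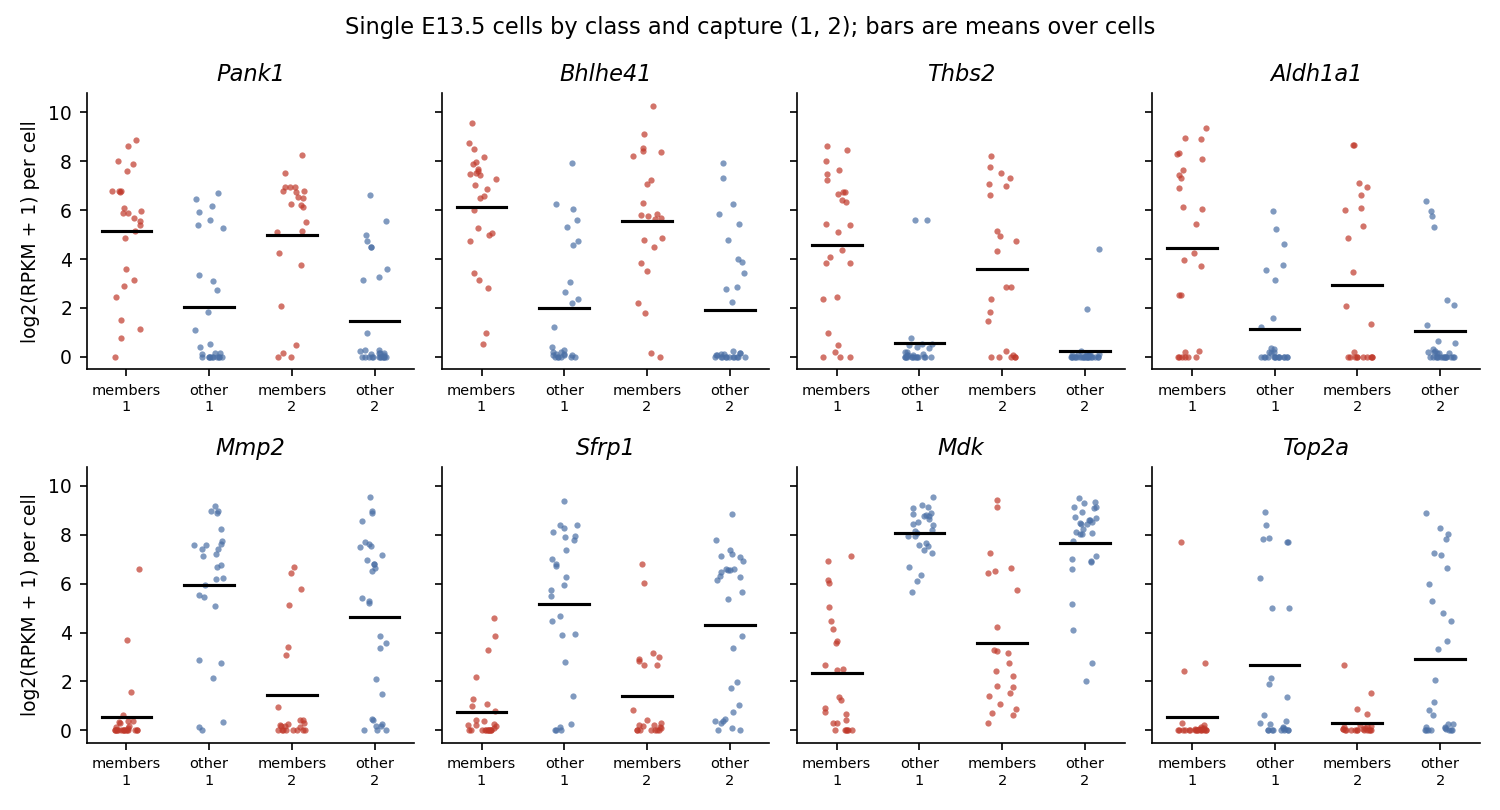
Each point is 1 E13.5 cell, with log2(RPKM + 1) on the vertical axis; columns are members and other cells of capture 1 and of capture 2, and bars are means over cells. Pank1, Bhlhe41, Thbs2 and Aldh1a1 are at or near 0 in most other cells, while Mmp2, Sfrp1 and Top2a are at or near 0 in most members. Mdk is lower in most members than in most other cells, and the classes overlap.

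The lowest 10 called genes included those of a growth factor, matrix proteins and secreted or surface signals. Mdk, which encodes the growth factor midkine, averaged 19.5 and 78.2 RPKM in members, against 322 and 315 RPKM in the other cells. All 57 other cells had it, and 14 of 26 and 19 of 23 members. Its equal-weight difference of -4.90 ± 0.70 was the largest in that direction (SE, limma adjusted p = 0.00905). Mmp2, a matrix metalloproteinase gene, averaged 4.32 and 12.9 RPKM in members, against 161.2 and 123.7 RPKM in the other cells, and was present in 3 of 26 and 6 of 23 members. Sfrp1, which encodes a secreted WNT antagonist, averaged 2.11 and 9.38 RPKM in members, against 128.1 and 73.3 RPKM in the other cells. For these 3 genes the class means of members and of other cells did not overlap between captures. The rule names the largest differences with 1 direction in both captures and so favours this, which makes it a description of the choice.

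Hmga2, which encodes a chromatin protein of undifferentiated cells, averaged 11.01 and 26.3 RPKM in members, against 114.5 and 196 RPKM in the other cells, and it overlaps 1700006J14Rik in the annotation. Cd24a, which encodes a surface glycoprotein, averaged 4.02 and 26.6 RPKM in members, against 101.9 and 124.8 RPKM in the other cells. Efna5, which encodes the guidance ligand ephrin A5, averaged 8.80 and 11.9 RPKM in members, against 88.3 and 144.7 RPKM in the other cells. Each of these was detected in fewer members than other cells in both captures. Nfib, a transcription factor gene, averaged 15.1 and 17.5 RPKM in members, against 79.8 and 77.5 RPKM in the other cells, and Gpc3, the glypican 3 gene on chromosome X, averaged 84.8 and 86.9 RPKM in members, against 311 and 387 RPKM in the other cells. Ado, a thiol dioxygenase gene, averaged 60.9 and 71.0 RPKM in members, against 248 and 315 RPKM in the other cells. Col1a2, the collagen I chain whose partner Col1a1 is a gate gene, averaged 4.74 and 0.604 RPKM in members, against 76.6 and 42.7 RPKM in the other cells.

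Of the 12 supporting-lineage genes outside the gate, 10 were higher in members in both captures and none was lower in both, where 21.3% of all genes were higher. Their median difference of class means was 1.32 on the log2 scale, where the median over all genes was 0.00. Like the other gene lists, this one was chosen with earlier results of these data known. Its shared direction is therefore a description and no independent evidence of what the members are. Of the 12, 2 were called. One was Amhr2, the receptor of anti-Müllerian hormone, which averaged 168 and 156.1 RPKM in members, against 60.7 and 71.0 RPKM in the other cells (equal-weight difference 2.75 ± 0.54, limma adjusted p = 0.0272). The hormone itself, Amh, was at 0 in every E13.5 cell.

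The other members of that list did not pass the threshold. Bmp2, a bone morphogenetic protein gene, averaged 47.4 and 33.4 RPKM in members, against 13.4 and 8.96 RPKM in the other cells (limma adjusted p = 0.0987 with equal weight). Lgr5, the R-spondin receptor, averaged 24.1 and 21.4 RPKM in members, against 6.18 and 8.23 RPKM in the other cells (limma adjusted p = 0.0647). Nr0b1, which encodes the nuclear receptor DAX1, averaged 39.3 and 27.04 RPKM in members, against 4.88 and 10.4 RPKM in the other cells, but it was present in only 9 of 26 and 5 of 23 members. In each of these the class means of members lay above those of the other cells in both captures.

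Cdkn1b, which encodes the cell cycle inhibitor p27, averaged 41.8 and 5.78 RPKM in members, against 6.80 and 3.21 RPKM in the other cells. Most of its excess was in the first capture, where the median member had 36.2 RPKM, against 3.21 RPKM in the second. Irx5, the neighbour of Irx3 in its gene cluster, was low everywhere, at 1.54 and 1.51 RPKM in members, against 1.71 and 0.726 RPKM in the other cells. Emb was present in 2 members in all, and Esr2, the estrogen receptor beta gene of later granulosa cells, in no member. The list thus held genes expressed by nearly all members beside genes of a few cells.

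The WNT and R-spondin genes went both ways. Of 22 tested, 8 were higher and 8 were lower in members in both captures, with a median difference of 0.16. Wnt6 was the called ligand, at 58.6 and 28.2 RPKM in members, against 8.23 and 7.11 RPKM in the other cells (limma adjusted p = 0.047 with equal weight). Wnt4 averaged 19.1 and 41.6 RPKM in members, against 11.1 and 9.94 RPKM in the other cells, and Rspo1 averaged 61.6 and 23.4 RPKM in members, against 23.3 and 12.2 RPKM in the other cells. Neither passed the threshold (limma adjusted p = 0.237 and 0.39). Wnt5a, a ligand of mesenchyme, was lower, at 6.84 and 4.78 RPKM in members, against 59.4 and 17.6 RPKM in the other cells (limma adjusted p = 0.0531), beside the called antagonist gene Sfrp1. Axin2, a target of the pathway, averaged 2.89 and 3.83 RPKM in members, against 1.53 and 2.16 RPKM in the other cells, and Ctnnb1, which encodes beta-catenin, averaged 112.96 and 154.55 RPKM in members, against 156.97 and 157.49 RPKM in the other cells.

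Of 20 BMP and activin genes, 7 were higher and 5 were lower in both captures, and only Amhr2 was called. Inha, the inhibin alpha subunit, averaged 63.6 and 23.3 RPKM in members, against 14.2 and 13.1 RPKM in the other cells (limma adjusted p = 0.42). The BMP target gene Id1 averaged 99.04 and 248 RPKM in members, against 99.3 and 122.9 RPKM in the other cells, and so overlapped between the classes. Of 11 Notch genes tested, 1 was higher and 6 were lower in both captures and none was called. The higher one was the target Hes1, at 31.3 and 55.6 RPKM in members, against 14.6 and 22.8 RPKM in the other cells.

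Among 11 gonadal transcription factor genes tested, 7 were higher and 1 was lower in both captures (median difference 0.36). Emx2, a homeobox gene needed for the gonad to form, was called, at 46.8 and 33.4 RPKM in members, against 15.97 and 10.6 RPKM in the other cells (limma adjusted p = 0.0402 with equal weight). Its exons overlap those of the antisense gene Emx2os. Nr5a1 averaged 52.2 and 84.6 RPKM in members, against 24.4 and 32.7 RPKM in the other cells (equal-weight difference 1.89 ± 0.47, limma adjusted p = 0.0604). The reporter was higher too: eGFP, named after its values were seen, averaged 2400 and 2192 RPKM in members, against 895 and 1101 RPKM in the other cells. It was called with equal weight (difference 2.66 ± 0.41, limma adjusted p = 0.00938) but not for its class means (limma adjusted p = 0.552). The transcript by which the cells were sorted thus differed between the classes. Gata4 averaged 70.2 and 96.5 RPKM in members, against 43.7 and 26.5 RPKM in the other cells (limma adjusted p = 0.0892). Wt1 was close in both classes, at 160 and 196 RPKM in members, against 111.5 and 177 RPKM in the other cells.

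All G2/M genes and most S phase genes were lower in members. All 19 G2/M genes were lower in members in both captures, where 27.1% of all genes were, with a median difference of class means of -2.80, and 8 were called. Of 19 S phase genes, 17 were lower and 1 was higher in both captures (median -1.30), and 3 were called. Top2a, which encodes topoisomerase II alpha, averaged 8.32 and 0.408 RPKM in members, against 68.6 and 61.3 RPKM in the other cells (equal-weight difference -2.38 ± 0.35, limma adjusted p = 0.00921). Top2a was present in 3 of 26 and 2 of 23 members, against 12 of 27 and 15 of 30 other cells.

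Promoters of G2/M genes are known to hold paired motifs, and stretches are shown for 3 genes with a copy of each within 100 bases before the start and for Ccnb2, where TTTGAA lies just after it. The stretches run 5′ to 3′ on the gene's strand from 100 bases before to 20 after the RefSeq start (GRCm38.p6). Capitals mark TTTGAA, the core of the cell cycle genes homology region, and CCAAT, the box bound by NF-Y, on either strand.
Top2a, chr11:99024170-99024289, minus strand: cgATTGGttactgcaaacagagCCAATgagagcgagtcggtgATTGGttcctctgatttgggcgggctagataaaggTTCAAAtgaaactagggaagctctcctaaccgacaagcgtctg
Ube2c, chr2:164769829-164769948, plus strand: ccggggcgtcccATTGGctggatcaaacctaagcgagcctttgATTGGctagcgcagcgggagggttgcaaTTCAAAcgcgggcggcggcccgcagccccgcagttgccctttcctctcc
Cdk1, chr10:69352893-69353012, minus strand: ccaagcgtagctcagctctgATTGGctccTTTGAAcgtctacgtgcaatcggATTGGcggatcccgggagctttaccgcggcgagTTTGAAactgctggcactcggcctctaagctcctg
Ccnb2, chr9:70421535-70421654, minus strand: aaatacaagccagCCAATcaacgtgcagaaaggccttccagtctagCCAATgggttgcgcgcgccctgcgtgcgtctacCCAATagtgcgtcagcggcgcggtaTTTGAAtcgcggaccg

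Over the full RefSeq window of 300 bases, TTTGAA was found in 11 of the 16 G2/M genes with an entry (68.8%) and in 1 of 15 S phase genes (6.67%), where 18.1% of all 27025 promoters hold it. CCAAT was found in 14 of the 16 G2/M genes (87.5%) and in 11 of the 15 S phase genes (73.3%), where 37.9% of all promoters hold it. The motifs do not overlap each other in their letters, and a match is a description of the sequence only.

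Ccnb2, the cyclin B2 gene, averaged 20.9 and 1.41 RPKM in members, against 85.1 and 44.1 RPKM in the other cells (limma adjusted p = 0.0238 with equal weight). The centromere protein genes Cenpf and Cenpe were called as well, at 0.539 and 0.305 RPKM for Cenpf in members, against 12.8 and 10.2 RPKM in the other cells. Ube2c, which encodes the ubiquitin-conjugating enzyme of the anaphase-promoting complex, averaged 14.3 and 0.0569 RPKM in members, against 32.4 and 22.7 RPKM in the other cells. Much of the level in the first capture came from 1 member, whose Ccnb2 was at 520 RPKM. Cdk1, the mitotic kinase, was not called, at 22.1 and 3.59 RPKM in members, against 44.05 and 32.4 RPKM in the other cells (limma adjusted p = 0.0541). Of the S phase genes, Rrm2, which encodes a ribonucleotide reductase subunit, averaged 5.27 and 11.2 RPKM in members, against 79.5 and 73.1 RPKM in the other cells, while Mcm4 of the replicative helicase averaged 85.6 and 75.5 RPKM in members, against 93.4 and 88.3 RPKM in the other cells.

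Counted by cell, at least 5 of the 19 G2/M genes were present in 1 of 26 members (3.85%, exact Clopper-Pearson 95% interval 0.0973 to 19.6%) and 2 of 23 members (8.70%, 1.07 to 28.04%). Among the other cells the counts were 11 of 27 (40.7%, 22.4 to 61.2%) and 10 of 30 (33.3%, 17.3 to 52.8%). The intervals cover the counting of cells only. The first capture held a member with 18 of the 19 genes, while no member of the second had more than 5. Against only the cells with T above S by at least 1, the median difference of the G2/M genes was -2.94. Of 5 cyclin-dependent kinase inhibitor genes tested, 2 were higher in both captures, none was lower in both and none was called. They were Cdkn1b, described above, and Cdkn1c. Cdkn1c, named after its values were seen, averaged 566 and 608 RPKM in members, against 300.2 and 314 RPKM in the other cells (equal-weight difference 1.11 ± 0.44, limma adjusted p = 0.265).

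**Figure D3:**
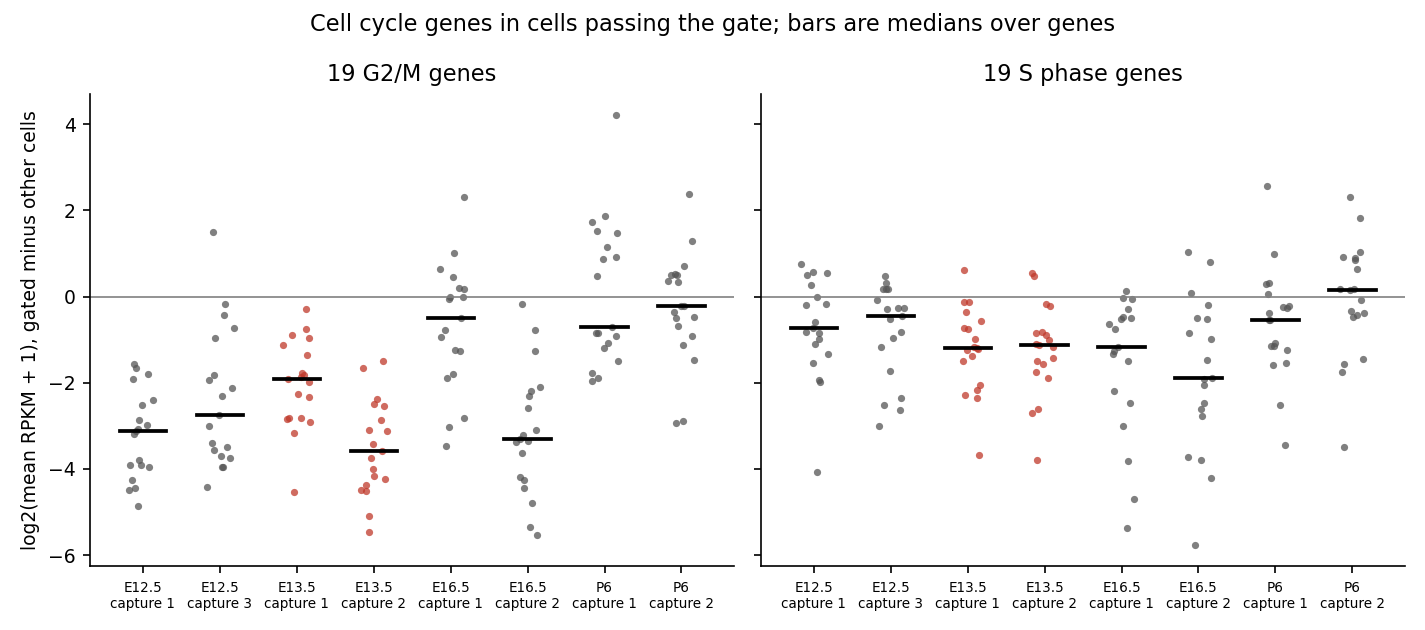
Each point is 1 gene, with the log2(mean RPKM + 1) of cells passing the gate minus that of the other cells of the same capture on the vertical axis; bars are medians over the 19 genes of each list, and E13.5 is in red. All 19 G2/M genes lie below 0 in both E13.5 captures, while at P6 they lie on both sides of 0.

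By stage, 18 of the 19 G2/M genes were lower in gated cells in both captures at E12.5 (26.7% of all genes were), 19 at E13.5, 13 at E16.5 (21.1% of all genes) and 7 at P6 (25.6%), where 5 were higher in both (19% of all genes).

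Most interstitial genes outside the gate were lower in members. Of 15 interstitial genes, 12 were lower and none was higher in both captures (median -1.44), and Pdgfrb, Mfap4 and Col1a2 were called. Pdgfrb, the receptor of pericytes and stroma, averaged 0.629 and 0.475 RPKM in members, against 24.5 and 37.0 RPKM in the other cells. Igf1 overlapped between the classes, at 37.2 and 34.3 RPKM in members, against 37.7 and 28.7 RPKM in the other cells. The list summed to 248 and 123.7 RPKM in members, against 503 and 451 RPKM in the other cells.

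Of 12 surface epithelium genes, 6 were lower and 1 was higher in both captures, and the uroplakin genes Upk3b and Upk1b were called. Upk3b averaged 1.18 and 0.626 RPKM in members, against 39.9 and 35.5 RPKM in the other cells, and was present in 4 of 26 and 1 of 23 members, against 13 of 27 and 12 of 30 other cells. The list summed to 209 and 281 RPKM in members, against 567 and 403 RPKM in the other cells, so the other cells held surface epithelium genes beside interstitial ones. The part of surface epithelium cells in each gene's difference was not tested. Of 12 basement membrane genes, 6 were lower and 1 was higher in both captures. Sparc, which encodes a collagen-binding matrix protein, averaged 197 and 164 RPKM in members, against 424 and 326 RPKM in the other cells, and Fn1, the fibronectin gene, averaged 0.327 and 1.13 RPKM in members, against 21.2 and 25.8 RPKM in the other cells. Both were called.

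Of the 3 retinaldehyde dehydrogenase genes of retinoic acid synthesis, only Aldh1a1 was called. It was higher, at 130.8 and 60.2 RPKM in members, against 5.79 and 8.22 RPKM in the other cells (limma adjusted p = 0.0295 with equal weight). It was present in 18 of 26 and 12 of 23 members, and in 8 of 27 and 7 of 30 other cells. Aldh1a2 averaged 68.7 and 37.8 RPKM in members, against 169 and 130 RPKM in the other cells (limma adjusted p = 0.242). Aldh1a3 averaged 1.75 and 23.7 RPKM in members, against 0.316 and 0 RPKM in the other cells, from few cells: 3 of 26 and 2 of 23 members, against 1 of 27 and 0 of 30 other cells (limma adjusted p = 0.064). The receptor gene Rarb was at or near 0 in members, at 0.0134 and 0.00346 RPKM, against 19.6 and 2.24 RPKM in the other cells. The binding protein gene Crabp1 was called lower, at 0.279 and 0.0571 RPKM in members, against 44.996 and 7.86 RPKM in the other cells. Few cells of either class held Crabp1: 1 of 26 and 0 of 23 members, against 5 of 27 and 6 of 30 other cells. In the whole list of 13 tested genes, 3 were higher and 7 were lower in both captures. Cyp26b1, which encodes the retinoic acid degrading enzyme of the fetal testis, was at 0 in members.

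Of the metabolic genes, Gatm, which encodes the enzyme of the first step of creatine synthesis, was called higher, at 252 and 99.5 RPKM in members, against 67.8 and 4.31 RPKM in the other cells. Gatm belongs to a list of 5 early supporting genes chosen on these samples, so its direction is no independent evidence, and the remaining 4 were not called. Of 14 cholesterol genes, 4 were higher and 2 were lower in both captures. Hmgcs1, an enzyme gene of cholesterol synthesis, was the called one, at 351 and 180 RPKM in members, against 131.6 and 94.3 RPKM in the other cells. Of 11 steroid enzyme and receptor genes, 3 were higher and 4 were lower in both captures and none was called. Hsd3b1 was present in 11 of 26 members of the first capture but in 2 of 23 of the second. Of 9 hedgehog genes tested, 1 was higher and 3 were lower in both captures and none was called. Of 11 immediate early genes, which respond to tissue dissociation, 1 was higher and 7 were lower in both captures (median -0.22). None was called, and Fos averaged 417 and 561 RPKM in members, against 593 and 506 RPKM in the other cells.

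Members varied among themselves. Correlations of log2(RPKM + 1) were computed within each capture for all pairs of the 15 supporting genes present in at least 10 members, 5 of which set the gate. Cells of a capture share a chip run, so the values are descriptions. In both captures, 7 pairs had r above 0.3 and 2 had r below -0.3, while the median r was 0.03 and 0.06. Both negative pairs involved Foxl2: r was -0.48 and -0.53 with Gng13, and -0.51 and -0.35 with Lgr5 (n = 26 and 23 cells). Foxl2 and Gng13 were present together in 7 members, Foxl2 alone in 19, Gng13 alone in 19 and neither in 4.

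Gng13, Lgr5 and Bmp2 went together instead. Their r was 0.46 and 0.45 for Gng13 with Lgr5, 0.64 and 0.45 for Bmp2 with Lgr5, and 0.36 and 0.60 for Gng13 with Bmp2. Foxl2 went with Wnt4, at r of 0.64 and 0.34. Kitl with Cdkn1b (0.58 and 0.43), Lgr5 with Amhr2 (0.56 and 0.38) and Bmp2 with Irx5 (0.41 and 0.38) made up the remaining positive pairs.

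**Figure D4:**
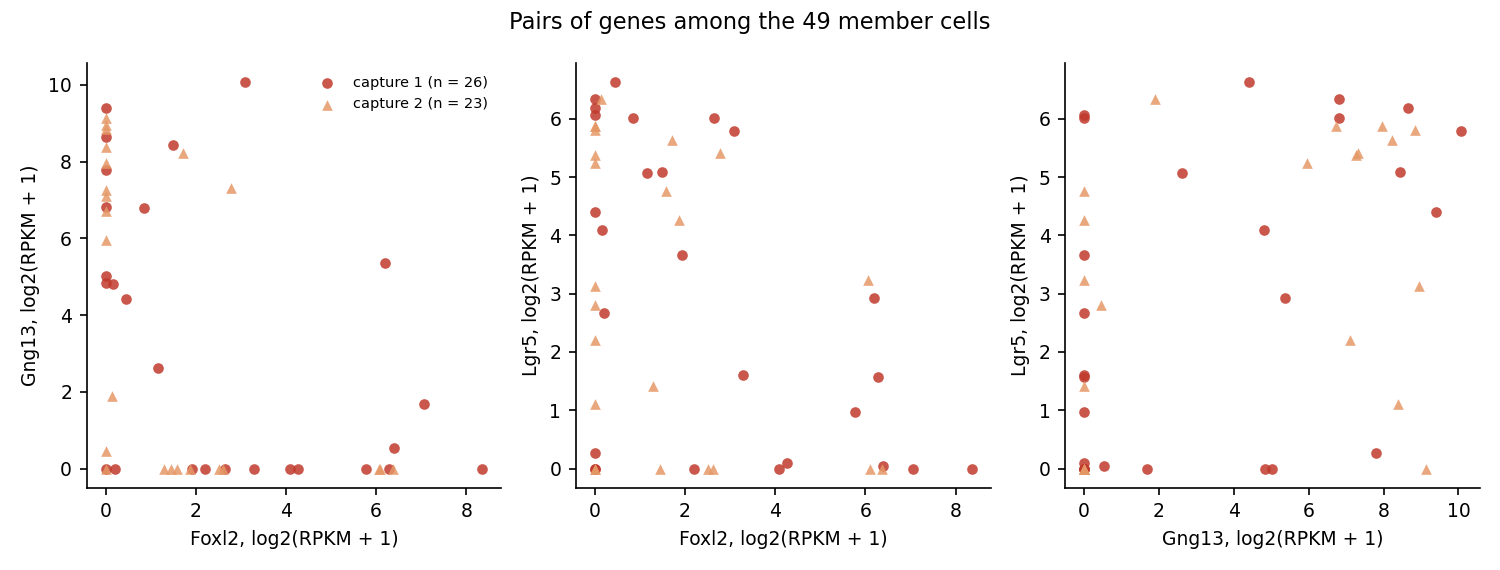
Each point is 1 of the 49 member cells, with log2(RPKM + 1) of a gene on each axis; circles are the first capture and triangles the second. Members high in Foxl2 are mostly at 0 for Gng13 and tend to be lower for Lgr5, and Gng13 was present without Foxl2 in 19 members.

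The stages before and after were compared through the difference between gated and other cells within each capture. limma called 0 of 19702 genes between the E13.5 and E12.5 differences (0%), with 780 at an unadjusted p under 0.05. It also called 0 between the E16.5 and E13.5 differences (0%), with 890 at an unadjusted p under 0.05. With equal weight per cell both counts were also 0, with 1414 and 1411 at an unadjusted p under 0.05. These captures belong to 2 sequencing series, of which E13.5 shares 1 with a single E12.5 capture and none with E16.5, so stage and series cannot be told apart between E16.5 and E13.5. Of the 289 genes called at E13.5, 78.9% had the same direction in both captures at E12.5, 69.9% at E16.5 and 52.6% at P6. Of all genes tested, 19.4% were higher and 26.7% lower in gated cells in both captures at E12.5, 21.9% and 21.1% at E16.5, and 19% and 25.6% at P6. Those genes include many at or near 0 at a stage, so they are no matched baseline. The calls at E13.5 also used the spread between captures at the other stages. That favours genes whose captures agree there, so the shared direction is a description only.

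Thbs2 and Aldh1a1 were near 0 to low in gated cells at E12.5. Thbs2 was at 2.56 and 0.41 RPKM in gated cells at E12.5, 84.4 and 58.4 RPKM at E13.5, 42.01 and 59.2 RPKM at E16.5 and 0.175 and 0.256 RPKM at P6. The Thbs2 difference between gated and other cells was larger at E13.5 than at E12.5 by 3.36 with equal weight per cell, which did not pass the threshold (limma adjusted p = 0.0681). Aldh1a1 was at 7.90 and 3.11 RPKM in gated cells at E12.5, 130.8 and 60.2 RPKM at E13.5, 126.3 and 70.3 RPKM at E16.5 and 160.8 and 156.3 RPKM at P6. Gstm2 was at 215 and 250 RPKM at E12.5, 983 and 450 RPKM at E13.5, 1014 and 1007 RPKM at E16.5 and 988 and 1080 RPKM at P6.

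Genes expressed at E13.5 that were low in gated cells at P6 included Lgr5, at 24.1 and 21.4 RPKM at E13.5 and at 0.51 and 0 RPKM at P6. Bmp2 was at 47.4 and 33.4 RPKM at E13.5, 4.99 and 6.13 RPKM at E16.5 and 0 and 0.158 RPKM at P6. Gng13 was highest at E16.5, at 342 and 459 RPKM, against 118.5 and 130 RPKM at E13.5. Kctd14 was highest at E12.5, at 739 and 1236 RPKM, and eGFP was at 6574 and 7466 RPKM at E12.5, 2400 and 2192 RPKM at E13.5, 2088 and 1565 RPKM at E16.5 and 518 and 553 RPKM at P6. These levels compare stages across captures and series and were not tested.

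**Figure D5:**
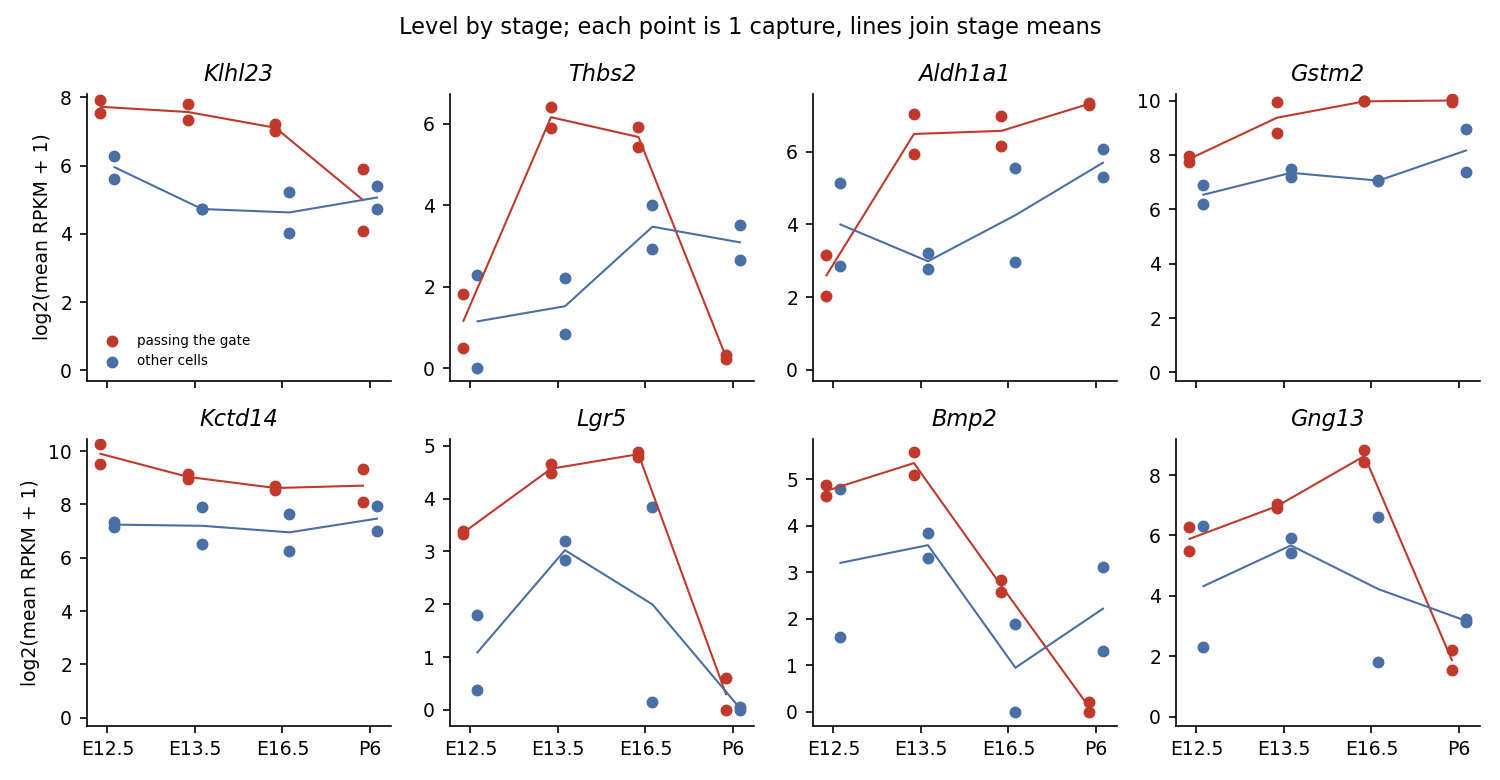
Each point is 1 capture, with log2(mean RPKM + 1) over cells on the vertical axis and stages E12.5 to P6 on the horizontal axis; red marks cells passing the gate and blue the other cells, and lines join stage means. Thbs2 and Aldh1a1 are low in gated cells at E12.5 and high at E13.5, while Lgr5, Bmp2 and Gng13 are low at P6.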

How the data were processed

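The values used were those of 1 table of 663 single-cell libraries. The authors' deposited values carry no unit name and were taken as RPKM, since their totals differ between cells and low values times gene length fall mostly on whole steps. Per the submitters' processing notes the build was GRCm38.p3 (mm10); aligner, counter, strand use and annotation stayed unnamed (not given in the sources used here). RPKM are not counts and the libraries have no molecular identifiers, so no count model was used, and RPKM of long and short genes can be compared. Depth was estimated from the steps of low values, using GENCODE vM21 exon lengths. Of 43347 names, 27 turned into dates were left out, and 1 repeat library (r = 0.996 with its first) was averaged with it, leaving 662 cells. Columns are named chip chambers with no cell barcodes to share.

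For each of the 8 captures with at least 5 gated and 5 other cells, log2(mean RPKM + 1) was taken per class, and the classes were subtracted within the capture; this understates changes of low genes. Genes with a class mean of at least 1 RPKM were kept and gate genes left out. limma 3.58.1 (R 4.3.3) fitted stage to these differences, with 4 residual degrees of freedom, an intensity trend and two-sided Benjamini-Hochberg adjustment. Pairing of classes within a capture comes from the chip run; their deviations from stage means correlated at r = 0.0207 to 0.0472. The script was tested on simulated data.

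Members and lists were chosen with earlier results of these data known. Genes were named by rule: the 10 highest and 10 lowest called differences with 1 direction in both captures and at least 5 RPKM in the higher class, up to 4 called genes of each list, every supporting gene outside the gate, and Nr5a1, Wt1 and Gata4. As the class means gave no call, the rule was applied to the equal-weight calls; no gene was named for the other stage comparisons. Other list members were chosen after their values were seen. Some named genes are not reported here. Promoters came from RefSeq (GRCm38.p6), positions from GENCODE vM21.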

Additional observations from a re-analysis of the deposited data

Results flagged for a closer look

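The genes below are those named by rule that went one way in both E13.5 captures and the opposite way in both captures of another stage. Values are the mean log2 difference of gated minus other cells over 2 captures. The difference between stages was not tested for these pairs, other than in the E12.5 comparison, where no gene passed. Thbs2 was at 4.63 at E13.5 and at -2.81 at P6. Gng13 was at 1.30 at E13.5 and at -1.30 at P6. Bmp2 was at 1.77 at E13.5 and at -2.11 at P6. Wnt4 was at 1.35 at E13.5 and at -1.51 at P6. Hmga2 was at -3.06 at E13.5 and at 0.45 at P6. Cenpe was at -2.68 at E13.5 and at 1.03 at P6. Aldh1a1 was at 3.50 at E13.5 and at -1.40 at E12.5. Genes chosen after their values were seen are left out of this list, though some of them turned as well. In both captures of each stage, Aldh1a2 was lower at E13.5 and higher at E16.5 and P6. Sox9, Cdkn1c and eGFP were higher at E13.5 and lower at P6. With 2 captures a stage, no single capture could be tested as standing apart from its group.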

How the results depend on the processing

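The count of called genes at E13.5, 0 with the planned settings, was 3 with a filter at 5 RPKM, 9 with no filter, 2 against only the cells with T above S by at least 1, 33 with no replicate block, 289 with the mean of log2 values per cell and 679 with the E13.5 captures alone; it stayed 0 with a pseudocount of 0.1, the gate at 0.5 or 1.5, equal totals, cells under 2000 genes left out, or without both P6 captures. The E13.5 and E12.5 differences gave 10 calls and the E16.5 and E13.5 differences 9 calls with no filter, and 0 under the other settings run, no replicate block included. Each fit that left out 1 capture called 0 genes in each of the 3 comparisons. The share of genes called with equal weight per cell, 1.47%, was 2.81% with a filter at 5 RPKM, 0.0197% with no filter, 0.384% with the gate at 0.5, 0.777% with the gate at 1.5 and 5.98% with the E13.5 captures alone; it was between 1.55% and 2.03% with the remaining settings, 1.65% with no replicate block among them, and 0% in each fit without 1 capture. Combining equal weight with another setting, and leaving out P6 captures or a capture of a stage not compared, were choices made after seeing the data. The share of members was 50.9% with the gate at 0.5, and moved by less than its SD otherwise. Over 53 named genes and 13 settings, 1 value reversed: Irx5 was at -0.093 without the second E13.5 capture. Including the second E12.5 capture was not run, because only 3 of its cells passed the gate. A lone capture left at a stage is assumed to vary like the others, and 2 captures a stage limit every call.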
